A study of Homo sapiens with 12 samples.

Results

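Messenger RNA of 38 listed ribosome biogenesis genes was followed in PC9 and HCC827 cells kept for 8 days with erlotinib or with its solvent. The genes were taken by name from the table of all probe sets (the groups of short probes that read 1 transcript), and each was represented by its brightest probe set annotated to a single gene. In this way 34 of the 38 were measured, out of 19775 genes measured in all, and all 34 passed the filter on low signals that left 13185 genes for testing. NOP56, DKC1 and BOP1 were read only by probe sets annotated to several genes and are given no value, and GNL3 was not analysed here. PC9 and HCC827 are established lines of human lung adenocarcinoma with activating EGFR mutations, and erlotinib inhibits the EGFR kinase. The 4 groups were PC9 in DMSO, PC9 in 2 µM erlotinib, HCC827 in DMSO and HCC827 in 2 µM erlotinib, each with 3 arrays and no other agent. All cells were grown in RPMI with 10% fetal bovine serum and were treated afresh after 4 days. Per the labels, DMSO cells were plated in smaller number in 10 cm dishes and erlotinib cells in larger number in 150-cm flasks, while the series text names flasks for all cells. Cell number and vessel therefore cannot be told apart from the drug. Separate cultures within a group are not stated, so p-values measure the spread between these samples only, which may be technical.

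Ribosomes are built in the nucleolus, where RNA polymerase I transcribes a single long precursor that holds the 18S, 5.8S and 28S ribosomal RNAs. Small nucleolar ribonucleoproteins (snoRNPs) guide its chemical modification. Processing factors then fold and cut it into the small and the large subunit, which are finished in the nucleus and the cytoplasm. The process consumes much of the energy of a growing cell, and its genes are well known targets of growth signalling and of the transcription factor MYC.

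The signals are linear intensities that were scaled so that each array has the same trimmed mean. A lower value is thus a lower share of the array's total signal, and less RNA of a gene per cell cannot be told apart from fewer cells that express it. Median signals of the 12 arrays ran from 11.1 to 14.5, and arrays of a group correlated over probe sets with r from 0.9926 to 0.996. Epithelial markers (EPCAM, KRT8, KRT18, KRT19, CDH1) were read in all groups, with sums per array of 10590.4 to 14438.6. No leukocyte marker passed the filter, and the 4 that were measured summed to at most 22.9 on any array. Of 5 fibroblast markers COL1A1 and LUM passed the filter and the other 3 did not; the sum of the 5 went from 77.1 to 96.6 in DMSO to 380.7 to 460.3 in erlotinib in PC9, and from 151.8 to 176.7 to 620.9 to 684.7 in HCC827. Of 4 endothelial markers PECAM1 and CDH5 passed, with a sum of 895 to 988.4 in PC9 DMSO, 653.4 to 704.7 in PC9 erlotinib and at most 19.0 in HCC827. The part of these markers in the results was not tested. The actin 3'/5' ratio, a measure of RNA integrity and amplification, was 2.18 ± 0.152 in PC9 DMSO, 2.22 ± 0.271 in PC9 erlotinib and 2.17 ± 0.0563 in HCC827 DMSO (mean ± SD, n = 3 each). HCC827 erlotinib stood apart with 3.03 ± 0.598 (SD, n = 3), and values that touch HCC827 are given below with this ratio as a covariate where that ended a call.

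The promoters of members were searched for the hexamer CACGTG, the E-box core read by MYC with its partner MAX and by related factors. The RefSeq promoter table (GRCh38.p14), with 250 bases before and 50 bases after a gene's start, held 28 of the 34 measured members; POLR1E, RRP12, RRS1, RRP1B, NOP58 and NOLC1 were not among them. CACGTG, which reads the same on both strands, was found in 11 of the 28 (39.3%), against 1076 of the 10692 tested genes in that table (10.1%) and 2030 of all 27305 promoters (7.43%). The 11 were RRP9, NOP14, WDR43, UTP20, BYSL, PNO1, NOP2, PES1, GNL2, FBL and MYBBP1A. By change in PC9 NOP2 came between RRP9 and PNO1, but its motif lay too near the end of the promoter sequence for a stretch of 30 bases. Stretches of 30 bases are shown for 4 of the others, in the order of their change in PC9. All are written 5′ to 3′ on the gene's own strand with CACGTG in capitals. They lie at chr3:51941892-51941921 on the minus strand (RRP9), chr2:68157885-68157914 on the plus strand (PNO1), chr4:2963374-2963403 on the minus strand (NOP14) and chr12:101280083-101280112 on the plus strand (UTP20).
RRP9: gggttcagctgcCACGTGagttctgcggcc
PNO1: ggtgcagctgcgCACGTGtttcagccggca
NOP14: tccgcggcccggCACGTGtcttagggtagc
UTP20: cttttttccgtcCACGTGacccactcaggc

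The hexamer of RRP9 began 5 bases before the start base and that of UTP20 10 bases before it, whereas those of PNO1 and NOP14 began 9 and 15 bases after it. Over all 11 members the first base of the motif lay from 10 bases before to 35 bases after the start. That range was read off the members themselves, and 171 of the 1076 tested promoters with the motif (15.9%) had it there. Other motifs were searched on both strands as well. CACGCG, a variant E-box, was in 9 of 28 member promoters (32.1%) and 18% of tested ones. CCGGAAG, an ETS core, was in 10 (35.7%) and 18.7%. An NRF1 site, searched as its unbroken palindromic core, was in 2 (7.14%) and 2.27%. These letter matches are descriptions of the windows and say nothing of which factor was bound.

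In PC9, 31 of the 34 members fell with erlotinib, none rose, and POLR1A, NOP16 and PES1 did not pass the test (limma, adjusted p under 0.05 over all genes tested). The background was large: 28.3% of all genes tested fell in PC9 and 36.3% rose, against 91.2% of members that fell. On the log2 scale the median change was -0.58 for members and 0.05 for all genes tested, with members running from -1.22 (LYAR) to 0.12 (POLR1A). For 31 members all 3 erlotinib arrays read below all 3 DMSO arrays, as they did for 28.3% of genes tested. On the probe sets used, only LYAR had a called fall of 1 or more on the log2 scale, as 449 of the 13185 genes tested had. Other probe sets of NOP16 (-1.22), NOLC1 (-1.29), PNO1 (-1.06) and LYAR (-1.57) also fell by more than 1. In HCC827, 14 members fell (41.2%), 2 rose (POLR1A and NOP16, on the probe sets used here) and 18 did not pass, where 19.5% of all genes tested fell and 32.2% rose. The median change there was -0.15 for members and 0.07 for all genes tested, with members running from -0.63 (UTP20) to 0.48 (POLR1A). For 16 members all HCC827 erlotinib arrays read below all HCC827 DMSO arrays, and they did so for 24.5% of genes tested. With the actin ratio as a covariate 10 members fell in HCC827 and 1 rose. Calls became fewer over all 13185 genes too, with 1594 lower and 2555 higher against 2568 and 4245 without the covariate. HCC827 erlotinib replicates 2 and 3 had the highest actin ratios of all arrays. Without both of them, which left 1 array in that group, fewer members and fewer of all genes tested were called.

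**Figure D1:**
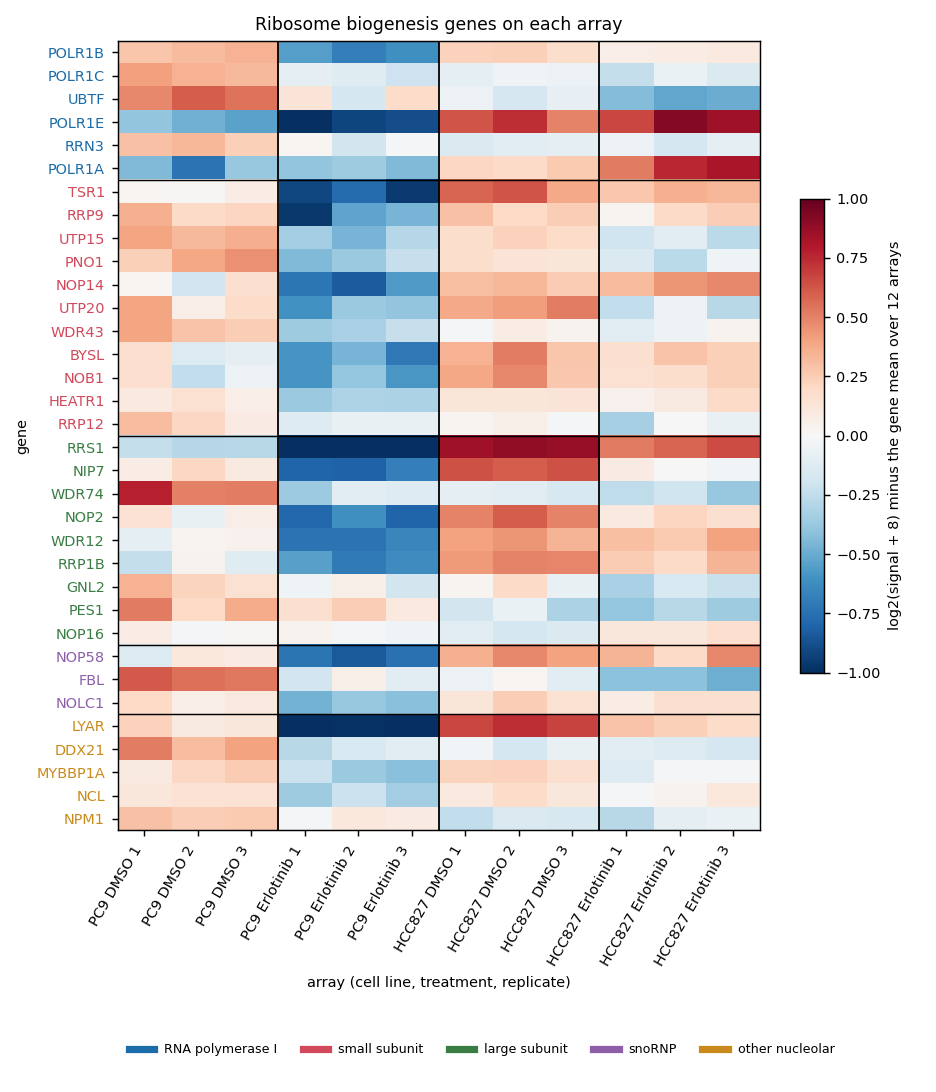
Heat map of log2(signal + 8) of the 34 measured genes (vertical axis, ordered by role) on each of the 12 arrays (horizontal axis), minus the gene's mean over the arrays; colours saturate at 1 above and 1 below that mean. The 3 PC9 erlotinib arrays are below the 3 PC9 DMSO arrays for 31 genes, and the HCC827 erlotinib arrays are below the HCC827 DMSO arrays for 16. This held for 28.3% of all genes tested in PC9 and for 24.5% in HCC827.

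RNA polymerase I and its initiation factors carry out the first step. Of the 6 members, 5 fell in PC9 with a median of -0.49. In HCC827 2 fell and 1 rose, with a median of -0.04. Over all genes tested, 28.3% fell in PC9, and 19.5% fell and 32.2% rose in HCC827. POLR1B, the second-largest subunit of the enzyme, read 986, 1010.0 and 1037 on the PC9 DMSO arrays and 552, 503 and 528 with erlotinib. In HCC827 it read 954, 960.4 and 919 in DMSO and 849, 855 and 870.1 in erlotinib. The erlotinib arrays were lower in both lines without overlap, by far more in PC9. The log2 change was -0.93 ± 0.05 (adjusted p = 3.52e-10) in PC9 and -0.14 ± 0.05 (adjusted p = 0.044) in HCC827. The HCC827 call was close to the threshold and was lost under 14 of the alternative settings. These included each of the 6 fits that left out 1 HCC827 array (adjusted p from 0.0566 to 0.126). They also included the fit with the actin covariate, where the change was larger (-0.20, adjusted p = 0.0653). Of the 3 other POLR1B probe sets, all fell in PC9. In HCC827 233341_s_at fell by 0.37 (adjusted p = 0.0094) and 2 did not pass.

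POLR1E, the subunit known as PAF53 that works with the enzyme at initiation, read 274, 258 and 247 in PC9 DMSO and 167, 189 and 192 in PC9 erlotinib. Its HCC827 signals were 566, 611 and 514 in DMSO and 579.8, 694 and 658 in erlotinib. PC9 was thus lower in both treatments, and its treatments did not overlap, while those of HCC827 did. The change was -0.49 ± 0.09 (adjusted p = 0.000114) in PC9 and 0.19 ± 0.09 (adjusted p = 0.0794) in HCC827. Without HCC827 DMSO replicate 2 or without HCC827 erlotinib replicate 1 the HCC827 value passed as a rise, at 0.25 and 0.26 (adjusted p = 0.0464 and 0.0272).

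UBTF, the upstream binding factor that opens ribosomal DNA for transcription, read 476, 523 and 499 in PC9 DMSO and 372, 300.4 and 386 in PC9 erlotinib. In HCC827 the values were 326, 303 and 321 in DMSO and 249, 234 and 239 in erlotinib. All erlotinib arrays lay below all DMSO arrays of their line. UBTF changed by -0.50 ± 0.09 (adjusted p = 8.57e-05) in PC9 and -0.38 ± 0.09 (adjusted p = 0.00146) in HCC827, although with the mean of its probe sets the HCC827 value was -0.07 (adjusted p = 0.526) and without HCC827 erlotinib replicates 2 and 3 the adjusted p was 0.0613.

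POLR1A, the largest subunit, was the only polymerase member that did not pass as lower in PC9. Its signals were 88.1, 70.4 and 92.1 in PC9 DMSO and 91.3, 93.9 and 88.1 in PC9 erlotinib, which overlap. In HCC827 they were 143, 141 and 148 in DMSO and 179.5, 212 and 221 in erlotinib, higher on every erlotinib array. The change was 0.12 ± 0.10 (adjusted p = 0.316) in PC9 and 0.48 ± 0.10 (adjusted p = 0.00114) in HCC827, and the other probe sets of POLR1A, described below, did not read this rise. The covariate fit and the fit without HCC827 erlotinib replicates 2 and 3 gave 0.27 (adjusted p = 0.174) and 0.30 (adjusted p = 0.122). POLR1C, shared with RNA polymerase III, fell in PC9 by 0.50 and RRN3, the initiation factor that joins the enzyme to its promoter, by 0.35; their HCC827 changes of -0.09 and 0.01 did not pass. With the mean of its probe sets POLR1C passed as lower in HCC827, at -0.22 (adjusted p = 0.00644). RRN3 has near-identical pseudogene copies, so its signal is uncertain.

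All 11 small subunit members fell in PC9, with a median of -0.67 and a range from -0.92 to -0.29, and 4 of 11 fell in HCC827 (median -0.16). The shares of all genes tested that fell were 28.3% in PC9 and 19.5% in HCC827. TSR1, a GTPase-like factor of late small subunit maturation, read 883, 878 and 919 in PC9 DMSO and 459, 507 and 444 in PC9 erlotinib. In HCC827 it read 1308, 1352 and 1139 in DMSO and 1053, 1116 and 1100.1 in erlotinib. The PC9 groups lay far apart and the HCC827 groups closer together, without overlap. TSR1 changed by -0.92 ± 0.07 (adjusted p = 7.25e-09) in PC9 and -0.21 ± 0.07 (adjusted p = 0.0169) in HCC827. The HCC827 call was lost with the actin covariate at a change of -0.23 (adjusted p = 0.116). It was also lost without HCC827 DMSO replicate 1, HCC827 DMSO replicate 2 or HCC827 erlotinib replicate 1, at -0.19, -0.16 and -0.19 (adjusted p = 0.072, 0.0942 and 0.0597). The TSR1 sets 218156_s_at, 218155_x_at and 239042_at, tested singly, did fall in HCC827, at -0.27, -0.27 and -0.41 (adjusted p = 0.00522, 0.00372 and 0.00398). Their differences, PC9 minus HCC827, were -0.47, -0.15 and -0.05 (adjusted p = 0.00158, 0.217 and 0.825).

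RRP9, a protein of the U3 snoRNP that directs the first cuts of the precursor, read 163, 145 and 147 in PC9 DMSO and 60.3, 84.6 and 88.6 in PC9 erlotinib. Its HCC827 signals were 155, 146 and 150.0 in DMSO and 128, 145 and 150.2 in erlotinib. Erlotinib arrays were clearly lower in PC9 and overlapped the DMSO arrays in HCC827. The change was -0.91 ± 0.12 (adjusted p = 3.75e-06) in PC9 and -0.09 ± 0.12 (adjusted p = 0.542) in HCC827. NOP14, a factor of the early small subunit precursor, had signals of 577, 497 and 638 in PC9 DMSO and 342, 317 and 382 in PC9 erlotinib. In HCC827 NOP14 read 702, 718 and 680.0 in DMSO and 710.3, 774 and 796 in erlotinib. Its fall was seen on all PC9 arrays, while the HCC827 groups overlapped. NOP14 changed by -0.70 ± 0.09 (adjusted p = 2.8e-06) in PC9 and 0.12 ± 0.09 (adjusted p = 0.284) in HCC827.

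UTP20, a large scaffold protein of the small subunit precursor, fell by close values in both lines. Its signals were 240.3, 189.9 and 207 in PC9 DMSO and 117, 138 and 136 in PC9 erlotinib. HCC827 gave 238, 245 and 261 in DMSO and 152, 174 and 148 in erlotinib. Neither line had overlapping groups. The changes were -0.67 ± 0.10 (adjusted p = 1.92e-05) in PC9 and -0.63 ± 0.10 (adjusted p = 6.33e-05) in HCC827, and their difference was -0.04 with a 95% interval from -0.34 to 0.26 (adjusted p = 0.841). RRP12, an export factor, changed least of the small subunit members in PC9. It read 129.7, 120.3 and 109.5 in PC9 DMSO and 93.8, 97.6 and 97.5 in PC9 erlotinib, a small step on dim signals. In HCC827 the groups overlapped at 105, 108 and 102 in DMSO and 80.5, 104 and 97.8 in erlotinib. The PC9 change was -0.29 ± 0.10 (adjusted p = 0.017), lost without PC9 DMSO replicate 1 (-0.24, adjusted p = 0.0708) and with the mean of its probe sets (-0.17, adjusted p = 0.2). The HCC827 change was -0.16 ± 0.10 (adjusted p = 0.203). UTP15, WDR43 and HEATR1, which join the precursor while it is transcribed, fell in PC9 by 0.73, 0.61 and 0.44, and UTP15 also fell in HCC827, by 0.39. PNO1, the partner of NOB1, fell by 0.71 in PC9 and 0.29 in HCC827, and BYSL, a late factor, fell by 0.57 in PC9. NOB1, the endonuclease that makes the last 18S cut, fell in PC9 by 0.47 and had an HCC827 change of -0.19 (adjusted p = 0.103). The latter passed without PC9 DMSO replicate 1 (adjusted p = 0.0493) and in a fit of the HCC827 arrays alone (adjusted p = 0.0234).

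**Figure D2:**
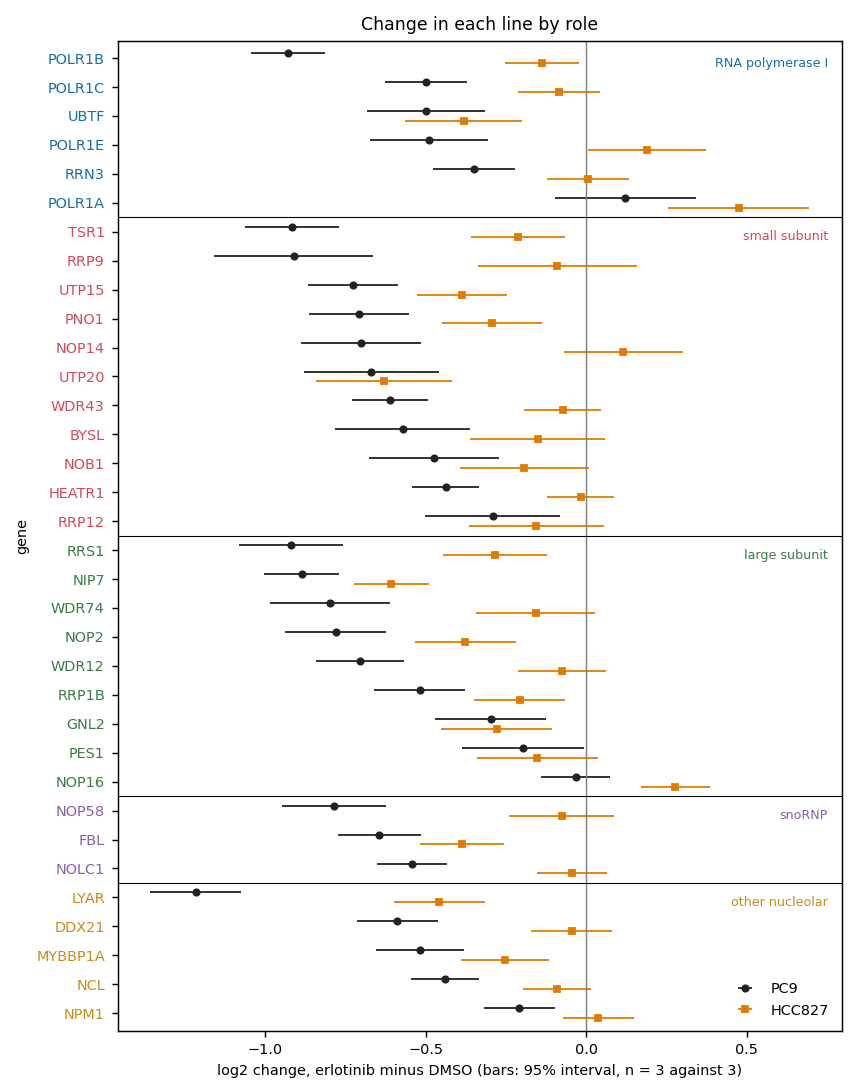
Log2 change, erlotinib minus DMSO (horizontal axis), of each of the 34 genes (vertical axis, grouped by role) in PC9 and HCC827; points are the estimates and bars their 95% intervals, n = 3 arrays against 3. All 11 small subunit factors fell in PC9 (-0.92 to -0.29), where 28.3% of all genes tested fell. Their HCC827 points lie nearer to 0 or above it.

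Of the 9 large subunit members with a value, 7 fell in PC9 (median -0.70) and 5 in HCC827 (median -0.21), where NOP16 rose. Among all genes tested, 28.3% fell in PC9, and 19.5% fell and 32.2% rose in HCC827. RRS1, which brings the 5S RNA particle to the precursor, read 803, 775 and 780.4 in PC9 DMSO and 351.4, 439.9 and 451 in PC9 erlotinib. HCC827 signals were 1712, 1752 and 1735 in DMSO and 1358, 1421 and 1489 in erlotinib. Every HCC827 array was above every PC9 array, and erlotinib arrays were lower in both lines. The change was -0.92 ± 0.08 (adjusted p = 2.28e-08) in PC9 and -0.28 ± 0.08 (adjusted p = 0.00511) in HCC827 (-0.23, adjusted p = 0.162 with the actin covariate). NIP7, a factor of large subunit assembly, read 1307, 1429.7 and 1316 in PC9 DMSO and 708, 704 and 768 in PC9 erlotinib. HCC827 cells gave 1929, 1887 and 1927 in DMSO and 1313, 1238 and 1212 in erlotinib. Both lines showed wide gaps between treatments on this probe set. NIP7 changed by -0.89 ± 0.06 (adjusted p = 7.37e-10) in PC9 and -0.61 ± 0.06 (adjusted p = 1.54e-07) in HCC827, the lowest HCC827 value among large subunit members. A second NIP7 set of like brightness, 223397_s_at, fell in PC9 by 0.87 (adjusted p = 1.21e-06). In HCC827 its groups overlapped and its change was -0.18 (adjusted p = 0.144), so the HCC827 fall rests on 1 of the sets.

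NOP2, an rRNA methyltransferase, fell in both lines, by 0.78 in PC9 and 0.38 in HCC827. RRP1B, a nucleolar protein of the same pathway, fell by 0.52 and 0.21, although its HCC827 call was lost without HCC827 DMSO replicate 2, HCC827 DMSO replicate 3 or HCC827 erlotinib replicate 2, at -0.20, -0.20 and -0.17 (adjusted p = 0.0537, 0.0511 and 0.0744). GNL2, a nucleolar GTPase, fell by 0.30 in PC9 and 0.28 in HCC827; without HCC827 DMSO replicate 2 the latter was -0.21 (adjusted p = 0.0616), and with the actin covariate -0.29 (adjusted p = 0.0957). The assembly factors WDR74 and WDR12 fell in PC9 by 0.80 and 0.70, and their HCC827 changes of -0.16 and -0.08 did not pass. PES1, which works in a complex with BOP1 and WDR12, was the only member that passed in neither line. It changed by -0.20 ± 0.09 (adjusted p = 0.064) in PC9 and -0.15 ± 0.09 (adjusted p = 0.168) in HCC827. Without PC9 DMSO replicate 2 its PC9 change was -0.28 (adjusted p = 0.0138). The PC9 change also passed under quantile normalization (-0.23, adjusted p = 0.0376) and with arrays centred on their medians (-0.34, adjusted p = 0.00658).

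Of the snoRNP members FBL (fibrillarin), the methyltransferase of box C/D particles, read 2267, 2164 and 2128 in PC9 DMSO and 1293, 1535 and 1368 in PC9 erlotinib. HCC827 arrays gave 1419, 1498 and 1373 in DMSO and 1111, 1110.3 and 1053 in erlotinib. Both lines were lower with erlotinib on every array. FBL changed by -0.64 ± 0.06 (adjusted p = 1.14e-07) in PC9 and -0.39 ± 0.06 (adjusted p = 6.24e-05) in HCC827. NOP58, its partner in the same particles, read 898, 1063 and 1044 in PC9 DMSO and 593, 549.6 and 587 in PC9 erlotinib. Its HCC827 signals were 1269.6, 1385 and 1309 in DMSO and 1254, 1132 and 1381 in erlotinib. PC9 groups were well separated and HCC827 groups overlapped. The NOP58 changes were -0.79 ± 0.08 (adjusted p = 1.72e-07) in PC9 and -0.08 ± 0.08 (adjusted p = 0.424) in HCC827. NOLC1, a chaperone of snoRNPs, read 2172, 1979 and 2022 in PC9 DMSO and 1361, 1450.4 and 1417 in PC9 erlotinib. Its HCC827 signals, 2060.0, 2243 and 2100.3 in DMSO and 1987, 2109.8 and 2112 in erlotinib, overlapped. NOLC1 changed by -0.54 ± 0.05 (adjusted p = 1.24e-07) in PC9 and -0.04 ± 0.05 (adjusted p = 0.501) in HCC827. Its other probe sets did fall in HCC827, by 0.42 and 0.72 (adjusted p = 0.00115 and 0.00084), and with the mean of its probe sets the HCC827 change was -0.39 (adjusted p = 0.00104). The 3 members had a median of -0.64 in PC9 and -0.08 in HCC827.

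Among other nucleolar proteins, LYAR, which promotes rRNA transcription and processing, had the largest fall of all members in PC9. It read 541, 491 and 497 in PC9 DMSO and 204, 228 and 213 in PC9 erlotinib. HCC827 signals were 734, 771 and 737 in DMSO and 561, 543 and 522 in erlotinib. Erlotinib arrays were lower in both lines with wide gaps. LYAR changed by -1.22 ± 0.07 (adjusted p = 1.6e-10) in PC9 and -0.46 ± 0.07 (adjusted p = 2.83e-05) in HCC827. NPM1 (nucleophosmin), an abundant chaperone of the granular nucleolus, read 4961, 4788 and 4851 in PC9 DMSO and 4011, 4344 and 4281 in PC9 erlotinib. In HCC827 the groups overlapped at 3411, 3645 and 3616 in DMSO and 3335, 3773 and 3865 in erlotinib. NPM1 changed by -0.21 ± 0.05 (adjusted p = 0.0022) in PC9, the smallest of these 5 falls, and by 0.04 ± 0.05 (adjusted p = 0.568) in HCC827. Its pseudogene copies make the signal uncertain. The NPM1 set 221923_s_at fell by 0.48 in PC9 (adjusted p = 1.44e-07) and 0.16 in HCC827 (adjusted p = 0.0102). The set 221691_x_at fell by 0.18 in PC9 (adjusted p = 0.0155) and did not pass in HCC827 (-0.07, adjusted p = 0.352). NCL (nucleolin) fell in PC9 by 0.44 and the helicase DDX21 by 0.59, with HCC827 changes of -0.09 and -0.04 that did not pass. With the mean of its probe sets, the second of them dim, NCL passed as lower in HCC827 at -0.45 (adjusted p = 0.000403). The other DDX21 set, 208152_s_at, fell by 0.59 in PC9 (adjusted p = 8.9e-09) and by 0.17 in HCC827 (adjusted p = 0.00463). MYBBP1A, a nucleolar protein that binds MYB, fell by 0.52 in PC9 and 0.25 in HCC827, the latter not passing with the mean of its probe sets (-0.10, adjusted p = 0.257).

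The lines were compared by the difference of their changes, PC9 minus HCC827. All 34 differences were negative, with a median of -0.41 against -0.02 for all genes tested. The difference was called for 27 members, each with the lower change in PC9, and for none in the other direction, where 23.9% and 21.2% of all genes tested were called as lower and as higher in PC9. RRP9 (-0.82, adjusted p = 0.000778), NOP14 (-0.82, adjusted p = 5.94e-05) and POLR1B (-0.79, adjusted p = 5.34e-07) differed most. The 7 whose difference did not pass were POLR1A, UBTF, RRP12, UTP20, NOB1, PES1 and GNL2. Their 95% intervals reached from -0.66 to -0.04 for POLR1A and from -0.38 to 0.14 for UBTF, and for GNL2 from -0.26 to 0.23. By calls in each line, 14 members fell in both lines (11.6% of all genes tested did), and 15 fell in PC9, did not pass in HCC827 and had a called difference (9.06% of all genes tested did). Among the 27 called differences, 10 were lost in at least 1 of the other settings run. With the actin covariate 23 differences were called, and those of BYSL, RRP1B, NPM1 and MYBBP1A did not pass, at -0.42, -0.23, -0.18 and -0.12 (adjusted p = 0.0854, 0.151, 0.145 and 0.38); that of BYSL was as large as without the covariate. Without HCC827 erlotinib replicates 2 and 3 there were 21. BYSL did not pass without PC9 DMSO replicate 1, PC9 erlotinib replicate 3, HCC827 DMSO replicate 1 or 3, or HCC827 erlotinib replicate 2 (adjusted p from 0.0507 to 0.0627). MYBBP1A did not without PC9 DMSO replicate 3, PC9 erlotinib replicate 2 or 3, HCC827 DMSO replicate 3, or HCC827 erlotinib replicate 2 or 3 (adjusted p from 0.0506 to 0.0719), and FBL without PC9 erlotinib replicate 1 or HCC827 DMSO replicate 3 (adjusted p = 0.0633 and 0.062). In turn POLR1A passed without PC9 DMSO replicate 2 or HCC827 erlotinib replicate 1 (adjusted p = 0.0115 and 0.0232), and NOB1 without PC9 DMSO replicate 2 (adjusted p = 0.0195). POLR1A also passed with 32 added to the signals, under quantile normalization and with arrays centred on their medians (adjusted p = 0.039, 0.0119 and 0.0437). Across the 34 members the change in PC9 and in HCC827 correlated with Pearson r = 0.60 and Spearman rho = 0.48, and across all 13185 genes with 0.49 and 0.51; genes of 1 array set share their libraries and no p is given.

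**Figure D3:**
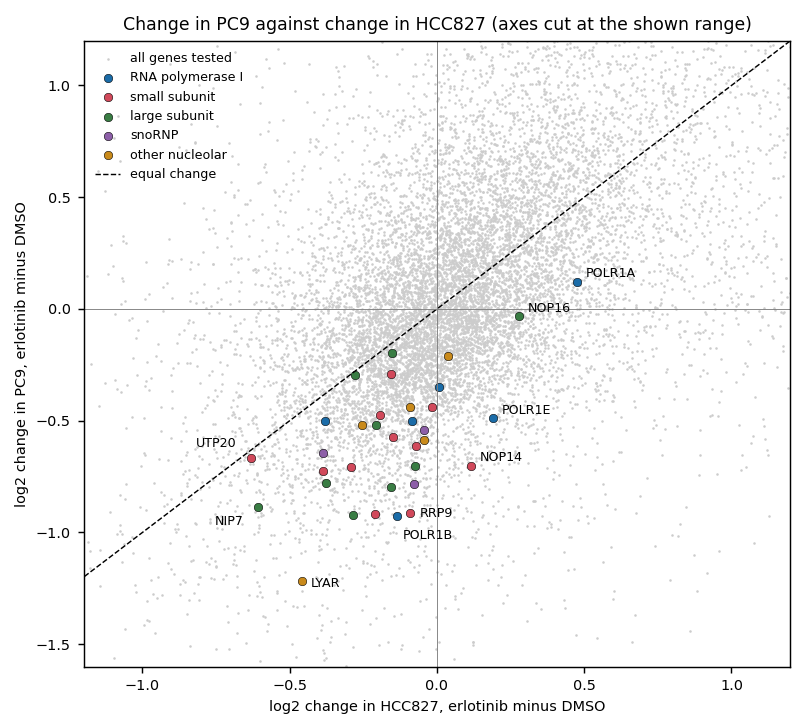
Log2 change in PC9 (vertical axis) against log2 change in HCC827 (horizontal axis) for the 34 ribosome biogenesis genes by role and for all genes tested in grey; the axes are cut at the shown range and the dashed line marks equal change. All 34 genes lie below the dashed line, and LYAR is the lowest of them in PC9, at -1.22.

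After 8 days in solvent the lines did not differ in a common direction. In DMSO, 13 members were lower in PC9 than in HCC827, 13 were higher and 8 did not pass, with a median difference of -0.01, where 39.4% of all genes tested were lower and 36.8% higher. The 3 largest differences were all toward HCC827, at -1.13 for RRS1 (adjusted p = 7.44e-10), -1.09 for POLR1E (adjusted p = 6.67e-09) and -0.74 for POLR1A (adjusted p = 6.44e-06). UBTF, WDR74 and FBL were higher in PC9, by 0.65, 0.72 and 0.61. These values share the DMSO arrays with the changes above, so no relation between them is given.

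The brightest probe set did not speak for every probe set of a gene. Of the members, 21 had further tested probe sets, 38 in all. Tested singly in a fit over all probe sets, 30 of these fell in PC9, none rose and 8 did not pass. In HCC827 17 fell, 1 rose and 20 did not pass. Of all genes tested, each on its brightest set, 28.3% fell in PC9 and 19.5% in HCC827. NOP16, a nucleolar protein of the large subunit pathway, was split. The brightest set, 213833_x_at, whose suffix marks probes that may also match other transcripts, read 1031, 973 and 988 in PC9 DMSO and 1005, 965 and 952 in PC9 erlotinib. It read 905, 866 and 885 in HCC827 DMSO and 1060.1, 1064 and 1099.7 in HCC827 erlotinib. The treatments overlapped in PC9 and erlotinib was higher in HCC827, with changes of -0.03 ± 0.05 (adjusted p = 0.586) in PC9 and 0.28 ± 0.05 (adjusted p = 0.000257) in HCC827. A second set, 203023_at, read 1183, 1098 and 1139 in PC9 DMSO and 452, 512 and 494 in PC9 erlotinib. In HCC827 it read 1028, 1046 and 974 in DMSO and 828, 803 and 738 in erlotinib. This set was lower with erlotinib in both lines, by 1.22 in PC9 (adjusted p = 1.01e-10) and 0.36 in HCC827 (adjusted p = 0.000238). The set 214011_s_at gave -1.22 and -0.32 (adjusted p = 6.79e-10 and 0.00229), whereas 209327_s_at gave -0.05 and 0.40 (adjusted p = 0.552 and 9.23e-05). Of the 4 sets for NOP16, 2 thus fell in both lines and the other 2 rose in HCC827.

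For POLR1A the 3 sets also differed. The brightest, 228515_at, carried the HCC827 rise given above. The set 235280_at changed by -0.44 in PC9 (adjusted p = 0.00159) and -0.22 in HCC827 (adjusted p = 0.0916), and 222704_at by -0.34 and -0.27 (adjusted p = 0.148 and 0.276). With the mean of all probe sets per gene, the HCC827 changes were -0.0044 for POLR1A (adjusted p = 0.977) and -0.0006 for NOP16 (adjusted p = 0.993), so that no member rose in either line, and the PC9 change of NOP16 was -0.63 (adjusted p = 5.64e-08). UTP15 had a dimmer set, 228043_at, with a change of -0.42 in PC9 and -1.005 in HCC827, against -0.73 and -0.39 for its brighter one.

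**Figure D4:**
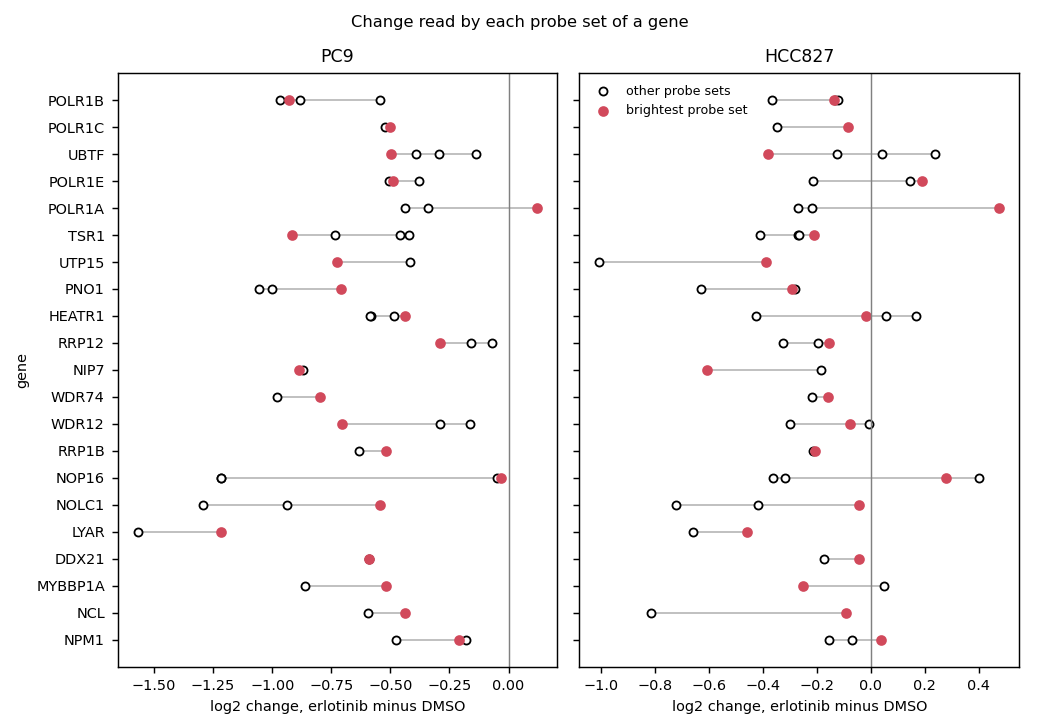
Log2 change, erlotinib minus DMSO (horizontal axis), read by each tested probe set of the genes with more than 1 (vertical axis), in PC9 (left) and HCC827 (right); red points are the brightest probe set and open points the others. In PC9 2 open points of NOP16 lie at -1.22, apart from its brightest set at -0.03.

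Further genes of the pathway, listed by the same roles and not among the 38, also fell more often than they rose. Over all genes tested, 28.3% fell in PC9 and 19.5% in HCC827. Of 119 listed, 113 were tested; 90 fell and 2 rose in PC9 (79.6% fell, median -0.41), and 52 fell and 3 rose in HCC827 (46% fell, median -0.16). By role, 36 of 42 small subunit, 28 of 36 large subunit, 10 of 12 snoRNP, 10 of 14 rRNA decay and trimming and 6 of 9 RNA polymerase I genes fell in PC9, with medians of -0.44, -0.43, -0.39, -0.35 and -0.36. The corresponding HCC827 counts were 24, 15, 4, 5 and 4. Their difference between lines was called as lower in PC9 for 50 (44.2%) and higher for 2. Of all genes tested, 23.9% were called as lower in PC9 and 21.2% as higher.

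TCOF1 (treacle), a nucleolar cofactor of UBTF, had the largest fall of these in PC9. It read 346, 375 and 350.1 in DMSO and 153, 160.0 and 168 in erlotinib, without overlap, and changed by -1.11 ± 0.10 (adjusted p = 4.99e-08). In HCC827 it changed by -0.55 ± 0.10 (adjusted p = 0.000213), which did not pass with the actin covariate (-0.30, adjusted p = 0.0877). POLR1G, a further polymerase subunit, fell in both lines, by 1.06 (adjusted p = 2.45e-09) and 0.65 (adjusted p = 1.67e-06). NLE1, a large subunit assembly factor, fell by 1.06 in PC9 (adjusted p = 1.06e-07), with -0.04 in HCC827 (adjusted p = 0.757) and a called difference of -1.02 (adjusted p = 2.41e-05). KRR1 and UTP23, both small subunit factors, had with POLR1G the lowest HCC827 values, at -0.67 and -0.65; they fell in PC9 by 0.68 and 0.59. UTP23 did not pass in HCC827 with the actin covariate (-0.25, adjusted p = 0.288).

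Few of the further genes rose. TAF1D, a subunit of the polymerase I selectivity factor, read 219, 209.8 and 228 in PC9 DMSO and 357, 302 and 276 in PC9 erlotinib. Every erlotinib array was above every DMSO array, and the change was 0.49 ± 0.11 (adjusted p = 0.000727). Its HCC827 change was -0.18 ± 0.11 (adjusted p = 0.164) and the difference 0.67 (adjusted p = 0.00182). XRN2, an exonuclease, was the other rise in PC9, at 0.21 (adjusted p = 0.0269), and did not pass in 8 of the other settings. It was 0.06 with arrays centred on their medians (adjusted p = 0.573), 0.07 with the mean of its probe sets (adjusted p = 0.451) and 0.17 under quantile normalization (adjusted p = 0.0682). It also did not pass without PC9 DMSO replicate 1, PC9 DMSO replicate 2 or PC9 erlotinib replicate 2 (adjusted p = 0.0534, 0.0613 and 0.161). In HCC827 the rises were PDCD11 at 0.30 (adjusted p = 0.0165), ZNHIT3 at 0.18 (adjusted p = 0.0117) and EIF6 at 0.17 (adjusted p = 0.031). Each of these 3 lost its call when arrays were centred on their medians, at 0.22, 0.11 and 0.09 (adjusted p = 0.0931, 0.245 and 0.329), and PDCD11 and EIF6 also with the actin covariate, at 0.14 and 0.15 (adjusted p = 0.491 and 0.257). PDCD11 also did not pass without HCC827 DMSO replicate 2 or HCC827 erlotinib replicate 2 (adjusted p = 0.0864 and 0.0668). EIF6 did not without HCC827 DMSO replicate 1 or 3 or HCC827 erlotinib replicate 2 or 3 (adjusted p from 0.0857 to 0.151). PDCD11 and EIF6 fell in PC9, by 0.41 and 0.44.

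Genes next to the pathway gave other counts. For comparison, 28.3% of all genes tested fell and 36.3% rose in PC9, and 19.5% fell and 32.2% rose in HCC827. Of 17 tested subunits of RNA polymerases II and III, 7 fell and 1 rose in PC9 (median -0.18), and 5 fell and 2 rose in HCC827 (median -0.10). POLR3G and its paralogue POLR3GL, alternative subunits of RNA polymerase III, were picked out after their values were seen. POLR3G read 1029, 1067 and 1023 in PC9 DMSO and 338, 333 and 364 in PC9 erlotinib. HCC827 arrays read 944, 961 and 964 in DMSO and 712, 741 and 739.5 in erlotinib. It was lower with erlotinib in both lines, with changes of -1.57 ± 0.06 (adjusted p = 6.56e-13) in PC9 and -0.38 ± 0.06 (adjusted p = 2.6e-05) in HCC827. POLR3GL instead rose, by 0.33 (adjusted p = 0.00493) and 0.35 (adjusted p = 0.00423). Of 56 tested cytosolic ribosomal protein genes, the structural parts of the ribosome, 13 fell and 2 rose in PC9 (median -0.06), and 1 fell and 19 rose in HCC827 (median 0.12). With arrays centred on their medians 40 of the 56 fell in PC9 and 3 rose in HCC827, so the counts of this family depend on the scaling. Under that setting 5015 of all 13185 genes fell in PC9 and 3242 rose in HCC827. In DMSO 53 of the 56 were higher in PC9 than in HCC827, with a median of 0.45, against 36.8% of all genes tested.

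**Figure D5:**
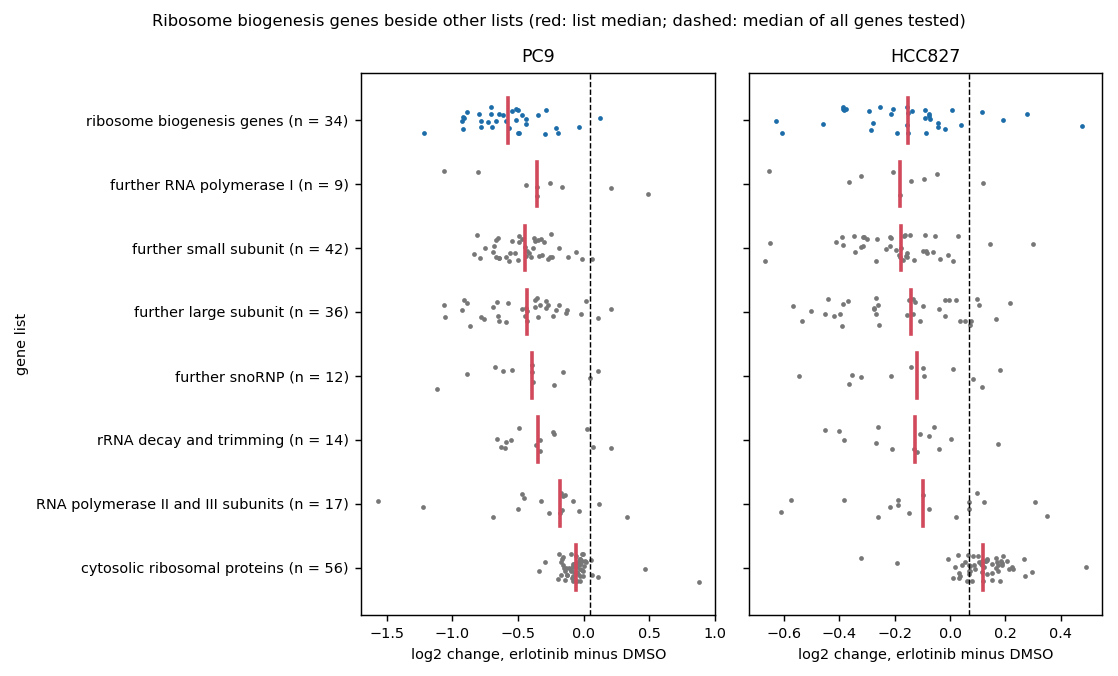
Log2 change, erlotinib minus DMSO (horizontal axis), of each gene of the ribosome biogenesis genes and of the neighbouring lists (vertical axis) in PC9 (left) and HCC827 (right); red marks are list medians and the dashed line is the median of all genes tested. In PC9 the median is -0.58 for the ribosome biogenesis genes, -0.44 for the further small subunit genes and -0.06 for cytosolic ribosomal proteins.

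MYC, a transcription factor known to drive ribosome biogenesis genes, moved in opposite directions in the lines. It read 987, 1099 and 1071 in PC9 DMSO and 621, 774 and 609.7 in PC9 erlotinib. In HCC827 it read 992, 991 and 1029.5 in DMSO and 1343, 1358 and 1454 in erlotinib. Every erlotinib array was lower in PC9 and higher in HCC827, and the DMSO groups of the lines overlapped. The change was -0.66 ± 0.08 (adjusted p = 1.6e-06) in PC9 and 0.46 ± 0.08 (adjusted p = 0.000122) in HCC827, with a difference of -1.12 (adjusted p = 6.3e-07); the calls in both lines held under all 25 other settings run. Opposite called directions were found for 5.37% of all genes tested and for none of the 34 members. Of the 10 tested genes of the MYC network, 2 fell and 5 rose in PC9 and 1 fell and 6 rose in HCC827. Over all genes tested, 28.3% fell and 36.3% rose in PC9, and 19.5% fell and 32.2% rose in HCC827. MXI1, which competes with MYC for MAX, was not named in advance and had the highest HCC827 change among the tested genes of the network. It rose in both lines, by 0.31 in PC9 (adjusted p = 0.000533) and 1.30 in HCC827 (adjusted p = 1.16e-10).

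Changes were also set beside the promoter letters described above. Of the 11 members with CACGTG, 10 fell in PC9 with a median of -0.64, and 6 fell in HCC827 with a median of -0.25. Of the 17 without it, 15 fell in PC9 (median -0.50) and 6 in HCC827 (median -0.09). Among all tested genes with a promoter sequence, 30.3% of those with the motif and 28.5% of those without it fell in PC9, and 21.9% and 19.8% in HCC827. The shares of members that fell were 90.9% with and 88.2% without the motif in PC9, and 54.5% and 35.3% in HCC827.

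Ribosomal RNA itself was read only by control probe sets, which the tests left out. The middle 18S set read 2279, 1739 and 1900.0 in PC9 DMSO and 1667, 1602 and 2409 in PC9 erlotinib. HCC827 arrays read 814, 559 and 868 in DMSO and 821, 623 and 706 in erlotinib. The treatments overlapped in both lines. The middle 28S set read 58.1, 63.7 and 70.3 in PC9 DMSO against 41.4, 49.3 and 51.9 in PC9 erlotinib, without overlap, and overlapped in HCC827. The 5' 28S set was lower with erlotinib without overlap in both lines. It read 40.2, 31.8 and 28.1 against 12.5, 13.2 and 22.2 in PC9. In HCC827 it read 13.8, 15.2 and 15.3 against 10.1, 13.4 and 9.0, near the median signal of 13. The 3' 28S set overlapped in both lines. These sets read ribosomal RNA left in an amplified product and are not a measure of ribosome number.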

How the data were processed

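The arrays were Affymetrix HG-U133 Plus arrays. Per the labels' protocols, RNA came from RNeasy Plus columns, and NuGEN Ovation kits served for amplification and biotin labelling. The deposited values are linear signal intensities made by the authors with MAS5, per the submitters' processing notes; each array has a 2% trimmed mean near 150, and no detection calls were used. Of 54675 probe sets, 41091 carry 1 gene symbol, 1801 several and 11783 none (62 controls among the last); 41037 matched the gene table by gene ID. A gene was represented by its brightest probe set (mean over 12 arrays) and tested if a group mean reached the table's median signal of 13. Log2(signal + 8), which understates changes of dim genes, was fitted in limma 3.58.1 (R 4.3.3), with 1 mean per group, a variance trend and Benjamini-Hochberg adjustment over 13185 genes; the procedure was tested on simulated data. The number of arrays limits the precision. The ± after a log2 change is its standard error, pooled over the groups.

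The members, roles and lists were chosen with earlier results of these data known. Full values are given for the lowest and highest member of each role in each line, the largest differences between lines and between their DMSO groups, and MYC. From the further lists the 3 lowest and 3 highest called changes of each line are named. The alternatives were other constants (1, 32), quantile normalization, median centring, no filter or a filter at the 70th percentile (signal 83.7), the mean of all probe sets, probe sets singly, no variance trend, each line alone, a replicate block, the actin covariate and leaving out arrays; the lone array left by removing HCC827 erlotinib replicates 2 and 3 took its spread from the other groups.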

Additional observations from a re-analysis of the deposited data

Results flagged for a closer look

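The change with erlotinib differed between the lines, by limma's test of the difference itself, for 27 members. Such differences were common, with 23.9% of all genes tested called as lower in PC9 and 21.2% as higher. Each member's difference is given as the log2 change in PC9 minus that in HCC827. Among RNA polymerase I members the differences were -0.79 for POLR1B, -0.68 for POLR1E, -0.41 for POLR1C and -0.35 for RRN3. Among small subunit members the differences were -0.82 for RRP9, -0.82 for NOP14, -0.70 for TSR1, -0.54 for WDR43, -0.42 for BYSL, -0.42 for HEATR1, -0.41 for PNO1 and -0.34 for UTP15. Among large subunit members the differences were -0.64 for WDR74, -0.64 for RRS1, -0.63 for WDR12, -0.40 for NOP2, -0.31 for RRP1B, -0.31 for NOP16 and -0.28 for NIP7. Among snoRNP members the differences were -0.71 for NOP58, -0.50 for NOLC1 and -0.26 for FBL. Among other nucleolar proteins the differences were -0.76 for LYAR, -0.54 for DDX21, -0.35 for NCL, -0.27 for MYBBP1A and -0.25 for NPM1. The values are all negative. Their causes were not tested.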

How the results depend on the processing

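The number of members that fell in PC9 was 31 and ran from 30 to 33 over the settings run (30 to 32 when 1 array was left out); in HCC827 it was 14 and ran from 10 to 15, with the lowest value without HCC827 DMSO replicate 2 and with the actin covariate. Called differences between the lines, 27 in number, came to at most 29 over the settings run and ran from 24 to 29 without 1 array. Lower counts, given above, came with the actin covariate and without HCC827 erlotinib replicates 2 and 3. Of the calls, 30 of 31 in PC9, 7 of 16 in HCC827 and 17 of 27 for the difference kept their direction and side of the threshold under every setting run. The sign of the estimate changed under at least 1 setting for 3 members in PC9, 9 in HCC827 and 5 for the difference. The count of members risen in HCC827, 2, came to 0 on averaging the probe sets of a gene, 1 with the actin covariate, 1 without HCC827 erlotinib replicates 2 and 3, and 2 to 3 when 1 array was left out.

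Median centring moved the median of all genes in PC9 from 0.05 to -0.10 and turned its split from 3734 lower and 4791 higher to 5015 and 3566; in HCC827 the split went from 2568 and 4245 to 3194 and 3242. It gave medians in PC9 of -0.73 for all members, -0.64 for RNA polymerase I, -0.82 for small subunit, -0.85 for large subunit, -0.79 for snoRNP and -0.66 for other nucleolar members; in HCC827 -0.23 for all and -0.17 for other nucleolar members; and -0.48 for the difference over all members. Quantile normalization gave PC9 medians of -0.52 for all, -0.53 for snoRNP and -0.43 for other nucleolar members. With the mean of all probe sets the PC9 medians were -0.40 for RNA polymerase I, -0.79 for snoRNP and -0.59 for other nucleolar members, and the HCC827 snoRNP median was -0.39; the HCC827 snoRNP median with the actin covariate was -0.19. Without HCC827 erlotinib replicates 2 and 3 the HCC827 medians were -0.21 for all and -0.15 for other nucleolar members, and the median difference was -0.35. On averaging the probe sets of a gene the HCC827 changes of POLR1A and NOP16 turned to -0.0044 and -0.0006, and the difference of UTP15 to 0.12 (adjusted p = 0.372). The cause of these shifts was not tested. With the replicate number as a block 31 members fell in PC9, 13 in HCC827 and 26 differed. Correlations of same-numbered deviations from group means were -0.25, -0.19 and -0.02 in PC9 and 0.01, 0.13 and 0.01 in HCC827. Those of differently numbered arrays ran from -0.07 to 0.24 in PC9 and from -0.14 to 0.125 in HCC827. Deviations from a group mean are tied to each other, so these values cannot tell whether the numbers pair the samples. The number of arrays, 3 per group, and the low signal of RRP12 and POLR1A limit the precision.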
